A study of Mus musculus with 9 samples.

Results

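The genes Ephb6, Zfp862-ps, Atp6v0e2, Repin1, Igf2bp3 and Fam221a start between 41 and 50 Mb of mouse chromosome 6 (GRCm38), on the far side of the T-cell receptor beta locus, Tcrb. They were chosen on measured values, as genes of this interval whose RNA levels differed between 3 CD8 T-cell clones, so their own differences are given here as a description and were not tested. They make up 6 of the 44 genes of the interval, of the 579 genes of chromosome 6 and of the 12115 genes in all that had a value over 1 TPM in some sample. TPM is a gene's share of all transcripts in a library, corrected for gene length and scaled to the same total in each. All 6 passed that filter, but Atp6v0e2 did so only through its Rop7-II samples.

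The study set side by side the CD8 T cells of the mouse lines Rop7-I, Rop7-II and Rop7-III, whose receptors all bind a peptide of the Toxoplasma gondii protein Rop7 held by the class I molecule H-2Ld. Each line was made by transferring the nucleus of 1 such T cell into an egg, so that its mice inherit the Tcra and Tcrb genes as that cell had rearranged them, under their own promoters, and each line was then bred over several generations to BALB/c. Spleen cells of mice homozygous for the receptor genes were held overnight with IL-2 (10 ng per ml) and no antigen, and cells with CD3, CD8 and binding to the Rop7 tetramer were sorted to a stated purity of 90 to 95%. There were 3 samples per clone, labelled as biological replicates, 9 in all, and polyadenylated RNA was read without regard to strand from 200 ng of RNA each. Age and sex of the mice were not given in the sources used here, and nothing says whether the samples of a clone came from separate animals, so the p-values measure only the spread between these samples. Each line goes back to a single T cell and a single founding egg, so the receptor, the rest of the genome of that cell and the line's breeding cannot be told apart as sources of a difference between clones.

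As background, a developing T cell assembles its receptor beta chain by cutting and joining segments of the Tcrb locus, and the joined chromosome passes to all of its descendants. When mice are bred to another strain while one locus is kept, DNA around the kept locus tends to travel with it, and recombination sets its ends separately in each line. Genes close together on such a stretch that differ because of its DNA would share the odd line, while their levels may be higher or lower in it. Other genes on the stretch may be even between the lines. The genotype of the interval was not analysed here, and the origin of its DNA in each line was not tested.

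All 7 CD8 T-cell markers examined (Cd3d, Cd3e, Cd3g, Cd8a, Cd8b1, Cd2 and Lck) were expressed, with a summed level between 6270 and 7001 TPM in a sample and Cd8b1 as the most abundant. Single markers differed between clones by less than 2-fold: Cd2 was lower in Rop7-II than in Rop7-I (adjusted p = 0.000132) and Rop7-III (1.52e-05), Cd8a was higher in Rop7-II than in Rop7-I (0.0064) and Rop7-III (0.000205), and Lck was higher in Rop7-II than in Rop7-I (0.00685). One library stood apart most. In Rop7-II replicate 1 the summed level of 13 B-cell markers was 2409 TPM, against 393, 1032 and 764 TPM in Rop7-I replicates 1 to 3, 188 and 269 TPM in Rop7-II replicates 2 and 3, and 148, 312 and 223 TPM in Rop7-III replicates 1 to 3. All 13 were highest in that library, with Cd74 the most abundant of them and none at 0 throughout. The 9 myeloid markers were likewise all highest there, with a sum of 812 TPM against 134 to 338 TPM in the other libraries. Cst3 was the most abundant of them by its mean over all samples. In Rop7-II replicate 1 it was Lyz2, at 485 TPM against 158 TPM for Cst3. The next highest myeloid sum, 338 TPM, was that of Rop7-II replicate 3, and S100a8, S100a9 and the CD4 T-cell marker Cd4 were higher in all Rop7-II samples than in all samples of both other clones. No other B-cell, myeloid or CD4 T-cell marker had all Rop7-II samples above the rest, and S100a8, S100a9 and Cd4 passed an adjusted p of 0.01 in no pair. The B-cell sums of Rop7-II replicates 2 and 3 lay below those of all Rop7-I samples. The myeloid sum of Rop7-II replicate 2, 167 TPM, lay within the range of Rop7-I. The higher sums were thus mainly those of Rop7-II replicate 1. Rop7-II is the odd clone of 5 of the members, and whether other cells add to the levels of those members was not tested. The mean correlation of Rop7-II replicate 1 with the other samples of its own clone was 0.978, against 0.984 to 0.994 for the other 8 samples, which is a description across genes. Genes of the interval, other than the members, that cross an adjusted p of 0.01 without this library are named below. In bulk RNA, fewer cells of a type and less RNA per cell cannot be told apart.

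The smaller lists of other cells varied. The sum of 8 erythroid markers, led by Hbb-b1, set another library apart, Rop7-I replicate 2, at 2491 TPM against 28.1 to 493 TPM in the others. Of these markers 7 were tested with limma and none was called, and none was highest in Rop7-II replicate 1. Of 3 tested NK-cell markers, Eomes, which also marks memory-like CD8 T cells, was lower in Rop7-II than in Rop7-I (log2 difference -2.19, adjusted p = 0.000188) and higher in Rop7-III against Rop7-II (1.24, adjusted p = 0.00262). Of 4 CD4 T-cell markers, 3 were again highest in Rop7-II replicate 1, where the sum of all 4 was 19.1 TPM against 2.39 to 5.37 TPM in the other libraries. The remaining one, Cd40lg, was higher in Rop7-III than in Rop7-I (1.97, adjusted p = 0.000324) and in Rop7-II (1.66, adjusted p = 0.000384), at 2.90 to 3.70 TPM in Rop7-III and at most 0.70 TPM in the other samples.

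The gene closest to Tcrb is Ephb6, 0.045 Mb beyond the end of the locus, at 41603834 to 41620509 of chromosome 6 on the plus strand. It encodes an Eph receptor whose kinase domain lacks catalytic activity and which is known in T cells as a modulator of receptor signalling. Ephb6 stood at 7.89, 7.93 and 9.80 TPM in the 3 Rop7-I samples, at 32.8, 36.0 and 32.7 TPM in those of Rop7-II and at 45.2, 43.6 and 48.1 TPM in Rop7-III. The odd clone was Rop7-I, in which all 3 samples lay far below the other 6, and the Rop7-II samples in turn lay below those of Rop7-III without overlap. Means with SD (n = 3) were 8.54 ± 1.09 TPM for Rop7-I, 33.8 ± 1.89 TPM for Rop7-II and 45.7 ± 2.29 TPM for Rop7-III, a ratio of 3.96 for Rop7-II to Rop7-I and of 5.35 for Rop7-III to Rop7-I. On the log2(TPM + 1) scale used below, which understates the differences of weakly expressed genes, the clones differed by 1.87, 2.29 and, between Rop7-III and Rop7-II, 0.42.

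The sequences around the start sites of 4 of the 6 genes are printed because these are the places where a difference between lines in a gene's own control region could first be looked for. They are RefSeq sequences of GRCm38.p6, which come from C57BL/6J and not from the mice studied, and each runs from 250 bases before to 50 bases after an annotated start, 5′ to 3′ on the gene's strand. In Atp6v0e2 this start is the outer end of the gene span given here, while in Ephb6, Igf2bp3 and Fam221a it lies inside the span. Capitals mark 5 short motifs searched on both strands: the GC box GGGCGG, held by 35.7% of 32851 promoters in the table, the CCAAT box CCAAT (37.4%), the E-box CACGTG (7.15%), the Ets motif CCGGAAG (8.86%) and the Tcf motif ATCAAAG (3.73%). A match describes letters and not a bound site. The Ephb6 window, chr6:41605261-41605560 on the plus strand, holds 5 GC boxes and 1 Ets motif and is 76.3% G and C, against a median of 52.7% over all promoters.
Ephb6: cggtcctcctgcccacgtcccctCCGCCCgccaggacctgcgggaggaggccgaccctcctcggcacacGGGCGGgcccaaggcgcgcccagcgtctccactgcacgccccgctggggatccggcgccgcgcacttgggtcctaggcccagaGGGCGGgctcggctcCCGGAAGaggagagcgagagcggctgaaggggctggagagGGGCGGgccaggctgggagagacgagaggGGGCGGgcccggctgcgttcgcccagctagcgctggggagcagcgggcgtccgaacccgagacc

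**Figure D1:**
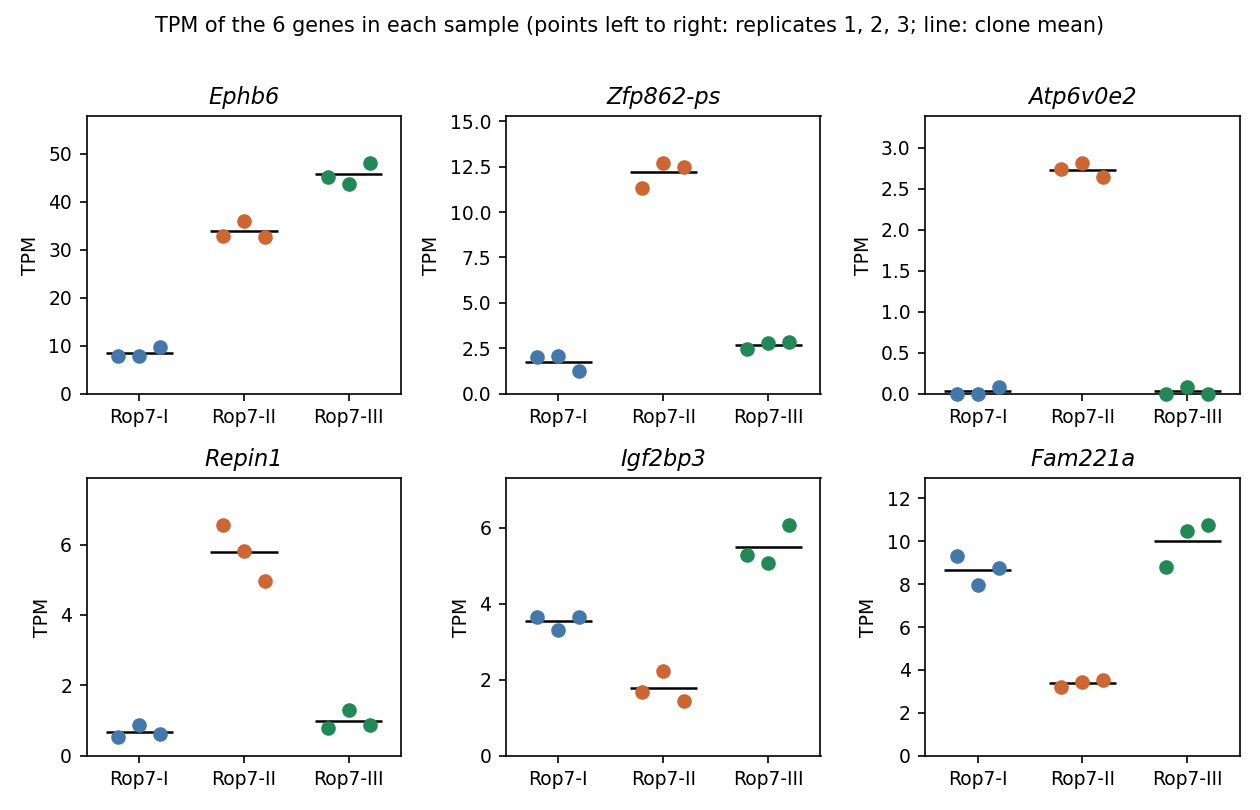
TPM of each of the 6 genes (vertical axis, from 0) in the 3 samples of each clone, with the clone mean as a line. Ephb6 is lowest in Rop7-I, at 7.89 to 9.80 TPM, while the other 5 genes set Rop7-II apart, 3 of them above and 2 of them below the other clones.

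Ephb6 did not stand alone at its end of the interval. Trpv6, a calcium channel gene on the minus strand, ends 0.11 kb from the end of Ephb6, so the 2 genes point at each other. Trpv6 stood at 0.46, 0.19 and 0.43 TPM in the Rop7-I samples, 1.30, 1.35 and 1.15 TPM in those of Rop7-II and 1.79, 1.67 and 2.21 TPM in Rop7-III. These are low values, but in the same order as those of Ephb6 and without overlap between any 2 clones. The log2 difference of Trpv6 was 0.74 (SE 0.15, adjusted p = 0.0108) between Rop7-II and Rop7-I, 1.09 (adjusted p = 0.00228) between Rop7-III and Rop7-I and 0.35 (adjusted p = 0.131) between Rop7-III and Rop7-II. Trpv6 was called between Rop7-III and Rop7-I, that is, it changed at least 2-fold with an adjusted p below 0.01. The call was lost when Rop7-I replicate 2 was left out (adjusted p = 0.0113), and also when any of Rop7-III replicates 1, 2 and 3 was (0.0110, 0.0102 and 0.0139), while over all alternatives its log2 difference ran from 1.00 to 2.16 and its adjusted p from 0.000881 to 0.0139. Because reads were not assigned by strand, reads running past the end of Ephb6 could not be separated from those of Trpv6 beyond the annotated ends, and their part was not tested.

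Beyond these, 8 more genes were tested within 2 Mb of Tcrb on the side of Ephb6, and several of them also had their lowest values in Rop7-I. Zyx, which encodes the focal adhesion protein zyxin, stood at 264, 279 and 278 TPM in the Rop7-I samples, at 324, 382 and 332 TPM in those of Rop7-II and at 458, 467 and 451 TPM in Rop7-III. Zyx thus had the order of Ephb6 with no overlap between clones, but its odd clone was Rop7-III, narrowly, and not Rop7-I. Its log2 difference was 0.33 (adjusted p = 0.00435) between Rop7-II and Rop7-I, 0.74 (adjusted p = 7.85e-05) between Rop7-III and Rop7-I and 0.41 (adjusted p = 0.000963) between Rop7-III and Rop7-II, each under 2-fold. Gstk1, a glutathione transferase gene, stood at 8.05 to 9.03 TPM in the Rop7-I samples, 11.7 to 13.2 TPM in those of Rop7-II and 9.45 to 13.4 TPM in Rop7-III. Fam131b stood at 0.41 to 0.46 TPM in the Rop7-I samples and 0.80 to 1.24 TPM in the other 6 samples. In both, all Rop7-I samples were below all others, but no pair of clones passed an adjusted p of 0.01 (Gstk1 0.0169 and Fam131b 0.147 for Rop7-II against Rop7-I, 0.0688 and 0.0539 for Rop7-III against Rop7-I).

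A further pair of genes in this stretch had the Rop7-III samples on top and little between the other clones. Casp2, a caspase gene, stood at 97.4 to 103 TPM in Rop7-III and 85.6 to 94.3 TPM in the other 6 samples, and Epha1, another Eph receptor gene that overlaps the end of Zyx on the opposite strand, at 2.01 to 2.24 TPM in Rop7-III and 1.18 to 1.72 TPM in the others. Neither passed an adjusted p of 0.01 in a pair (lowest 0.0276 for Casp2 and 0.0565 for Epha1). Reads from the stretch that Epha1 shares with the far more abundant Zyx cannot be assigned without strand, and their part was not tested. In 2010310C07Rik and Tas2r143 the clones overlapped. Counted over the 9 tested genes other than Ephb6 from 0 to 2 Mb on this side, the Rop7-I samples lay all above or all below the other 6 in 4 genes, all of them below, where 11.6% of all tested genes separate Rop7-I in this way. The Rop7-III samples lay all above the others in 4 genes (Trpv6, Casp2, Zyx and Epha1), where 18.6% of all tested genes separate Rop7-III in either direction. The Rop7-II samples were set apart in 0 of the 9, against 19.9% of all tested genes. These shares of few neighbouring genes were not tested.

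On the side of Ephb6, the chromosome has no tested gene between 2 and 5 Mb from Tcrb. The other 5 members lie beyond this gap, between 6.95 and 7.81 Mb from Tcrb, within 886 kb that also hold 16 other tested genes. The gap leaves 10 tested genes on the side of Ephb6 and 34 on the other. In all of the 5 the odd clone was Rop7-II.

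Zfp862-ps, the first of them, is an annotated transcribed pseudogene of a zinc finger gene, at 48504339 to 48534832 on the plus strand. It stood at 1.99, 2.08 and 1.22 TPM in the Rop7-I samples, at 11.3, 12.7 and 12.5 TPM in those of Rop7-II and at 2.45, 2.77 and 2.82 TPM in Rop7-III. Rop7-II was high, and the low clones did not overlap each other either, with Rop7-I below Rop7-III. The means were 1.76 ± 0.473, 12.2 ± 0.741 and 2.68 ± 0.201 TPM (SD, n = 3 each), so that Rop7-II held 6.91 times the level of Rop7-I. Its log2 differences were 2.27 between Rop7-II and Rop7-I, 0.43 between Rop7-III and Rop7-I and -1.84 between Rop7-III and Rop7-II.

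Atp6v0e2 begins 2.74 kb after the end of Zfp862-ps on the same strand, at 48537569 to 48541801, with no other tested gene between them. It encodes an isoform of a small membrane subunit of the V-ATPase, the proton pump that acidifies lysosomes and other organelles. Its window, chr6:48537319-48537618 on the plus strand, holds 1 GC box, 2 CCAAT boxes and 1 Tcf motif, the latter sharing its first 2 letters with a CCAAT box.
Atp6v0e2: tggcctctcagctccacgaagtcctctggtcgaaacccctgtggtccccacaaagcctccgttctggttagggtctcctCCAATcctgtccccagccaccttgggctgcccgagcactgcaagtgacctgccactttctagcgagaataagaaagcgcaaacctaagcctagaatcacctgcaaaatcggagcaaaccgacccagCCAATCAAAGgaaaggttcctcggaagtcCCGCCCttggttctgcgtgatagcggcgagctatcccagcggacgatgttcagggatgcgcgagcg
Atp6v0e2 stood at 2.74, 2.82 and 2.64 TPM in Rop7-II. In Rop7-I it was listed at 0, 0 and 0.08 TPM and in Rop7-III at 0, 0.08 and 0 TPM. It was thus near the floor of the table in both other clones and even between them, and no ratio is given against such values. On the log2(TPM + 1) scale Rop7-II exceeded each of them by 1.86, a size that depends on the TPM added and reached 4.54 with 0.1 TPM in its place. Its closest relative, Atp6v0e, stood at means of 140, 148 and 159 TPM in the Rop7-I samples, Rop7-II and Rop7-III, so that the Rop7-II transcripts of Atp6v0e2 came on top of a far larger pool of the other isoform in every clone.

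Repin1, a zinc finger gene whose protein binds DNA near replication origins, starts 52.1 kb after the end of Atp6v0e2, at 48593883 to 48599082 on the plus strand. It stood at 0.54, 0.87 and 0.62 TPM in the Rop7-I samples, at 6.57, 5.82 and 4.97 TPM in those of Rop7-II and at 0.78, 1.31 and 0.86 TPM in Rop7-III. Rop7-II was high with no overlap, while Rop7-I and Rop7-III overlapped. The mean in Rop7-II, 5.79 ± 0.801 TPM (SD, n = 3), was 8.55 times that of Rop7-I (0.677 ± 0.172 TPM), and the log2 differences were 2.02 from Rop7-I and -1.78 for Rop7-III against Rop7-II. In Rop7-II replicate 1, Zfp862-ps was below, Atp6v0e2 between and Repin1 above the other Rop7-II samples, each by little beside the distance to the other clones.

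The last 2 genes turn the direction around. Igf2bp3, at 49085218 to 49215469 on the minus strand and 486 kb after the end of Repin1, encodes an RNA-binding protein best known from fetal tissue, where it acts with Lin28b in the fetal lymphoid programme. Igf2bp3 stood at 3.65, 3.31 and 3.66 TPM in the Rop7-I samples, at 1.67, 2.22 and 1.45 TPM in those of Rop7-II and at 5.29, 5.08 and 6.08 TPM in Rop7-III. Here all 3 clones were separate, with Rop7-II lowest and Rop7-III highest, and the choice of Rop7-II as the odd one is narrow: its log2 distance to Rop7-I was 0.72, against 0.51 between Rop7-I and Rop7-III. The log2 difference of Rop7-III against Rop7-II was 1.23. Igf2bp3 overlaps the neighbouring gene Malsu1 on the opposite strand, and reads from the shared stretch cannot be assigned without strand. Its window, chr6:49214905-49215204 on the minus strand, holds 2 E-boxes and 1 CCAAT box.
Igf2bp3: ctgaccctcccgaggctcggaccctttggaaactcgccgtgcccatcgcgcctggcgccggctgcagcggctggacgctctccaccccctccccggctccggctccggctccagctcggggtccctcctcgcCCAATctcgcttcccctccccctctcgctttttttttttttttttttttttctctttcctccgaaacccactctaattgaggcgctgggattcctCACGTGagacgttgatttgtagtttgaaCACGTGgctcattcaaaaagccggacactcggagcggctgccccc

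Fam221a starts 151 kb after the end of Igf2bp3, at 49366921 to 49389905 on the plus strand, and encodes a protein of little studied function. It stood at 9.30, 7.96 and 8.74 TPM in the Rop7-I samples, at 3.21, 3.43 and 3.54 TPM in those of Rop7-II and at 8.79, 10.5 and 10.8 TPM in Rop7-III. Rop7-II was low in all samples, at a mean of 3.39 ± 0.168 TPM (SD, n = 3), and Rop7-I (8.67 ± 0.673 TPM) and Rop7-III (10.0 ± 1.08 TPM) overlapped. The log2 differences were -1.14 for Rop7-II against Rop7-I, 0.19 for Rop7-III against Rop7-I and 1.32 for Rop7-III against Rop7-II. The Fam221a window, chr6:49367489-49367788 on the plus strand, holds 7 GC boxes, the most of the 4, and 1 CCAAT box.
Fam221a: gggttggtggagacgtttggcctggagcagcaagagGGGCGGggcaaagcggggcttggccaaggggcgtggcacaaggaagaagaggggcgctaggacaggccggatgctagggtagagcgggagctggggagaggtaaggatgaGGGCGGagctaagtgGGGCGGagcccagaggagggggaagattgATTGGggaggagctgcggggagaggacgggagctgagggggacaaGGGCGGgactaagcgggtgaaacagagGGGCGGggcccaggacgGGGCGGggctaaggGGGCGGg
No motif was shared by all 4 windows, and no E-box, Ets or Tcf motif was found in that of Fam221a, which says only that these letters are not in these 300 bases.

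Over the 9 samples the members fell into 2 patterns. Pearson's r of log2(TPM + 1) among Zfp862-ps, Atp6v0e2 and Repin1 was 0.97 to 0.98, and r of these with Igf2bp3 and Fam221a was -0.98 to -0.79. Ephb6 had r between -0.21 and 0.49 with the other 5. These values are a description of genes picked for differing between the same 3 clones, and carry no test.

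The neighbours of the 5 genes did not share a single pattern. Lrrc61, the only tested gene between Atp6v0e2 and Repin1, stood at 27.8, 27.2 and 25.7 TPM in the Rop7-I samples, at 37.6, 40.9 and 35.7 TPM in those of Rop7-II and at 31.3, 30.5 and 30.2 TPM in Rop7-III. It had the direction of the genes on either side, with Rop7-II highest in every sample, but at log2 differences of 0.49 (SE 0.06, adjusted p = 0.000573) from Rop7-I and -0.30 (adjusted p = 0.00456) for Rop7-III against Rop7-II. Zfp775, 2.93 kb after the end of Repin1 on the same strand, stood at 5.91 to 6.96 TPM in the Rop7-I samples, 6.47 to 7.23 TPM in those of Rop7-II and 6.76 to 6.99 TPM in Rop7-III, with overlapping clones and adjusted p of 0.469 to 0.925. The large difference of Repin1 was thus not seen in the next gene. On the other side of the group, Zfp467, 58.3 kb before Zfp862-ps, was highest in Rop7-I (4.17 to 5.71 TPM, against 2.28 to 3.14 TPM in those of Rop7-II and 2.91 to 3.74 TPM in Rop7-III), at a log2 difference of -0.65 between Rop7-II and Rop7-I (adjusted p = 0.0142).

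Around Igf2bp3 and Fam221a the neighbours were closer to even. Malsu1, which overlaps Igf2bp3, stood at means of 21.9, 23.1 and 26.2 TPM in the Rop7-I samples, Rop7-II and Rop7-III, Tra2a at 119, 108 and 104 TPM, and Ccdc126, the gene before Fam221a, at 19.8, 19.3 and 20.2 TPM. Across these 3 genes and 3 pairs of clones the lowest adjusted p was 0.0586, for Tra2a in Rop7-III against Rop7-I. Malsu1 depended on Rop7-II replicate 1, where it stood at 27.8 TPM against 21.3 and 20.3 TPM in the other Rop7-II samples. Without that library its log2 difference between Rop7-III and Rop7-II went from 0.18 (adjusted p = 0.285) to 0.32 (adjusted p = 0.0349), and the small one between Rop7-II and Rop7-I turned from 0.06 to -0.07. The next tested gene after Fam221a is Mpp6, 720 kb on and just outside the interval, at means of 13.9, 18.2 and 13.8 TPM. In Mpp6 Rop7-II was again highest in all samples, the opposite of Fam221a, with a log2 difference of 0.37 from Rop7-I (adjusted p = 0.0127) and -0.37 for Rop7-III against Rop7-II (adjusted p = 0.00835). Ssbp1, the nearest tested gene before Ephb6 and on the other side of Tcrb, was even at 68.4, 65.6 and 69.2 TPM (adjusted p 0.273 to 0.850).

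**Figure D2:**
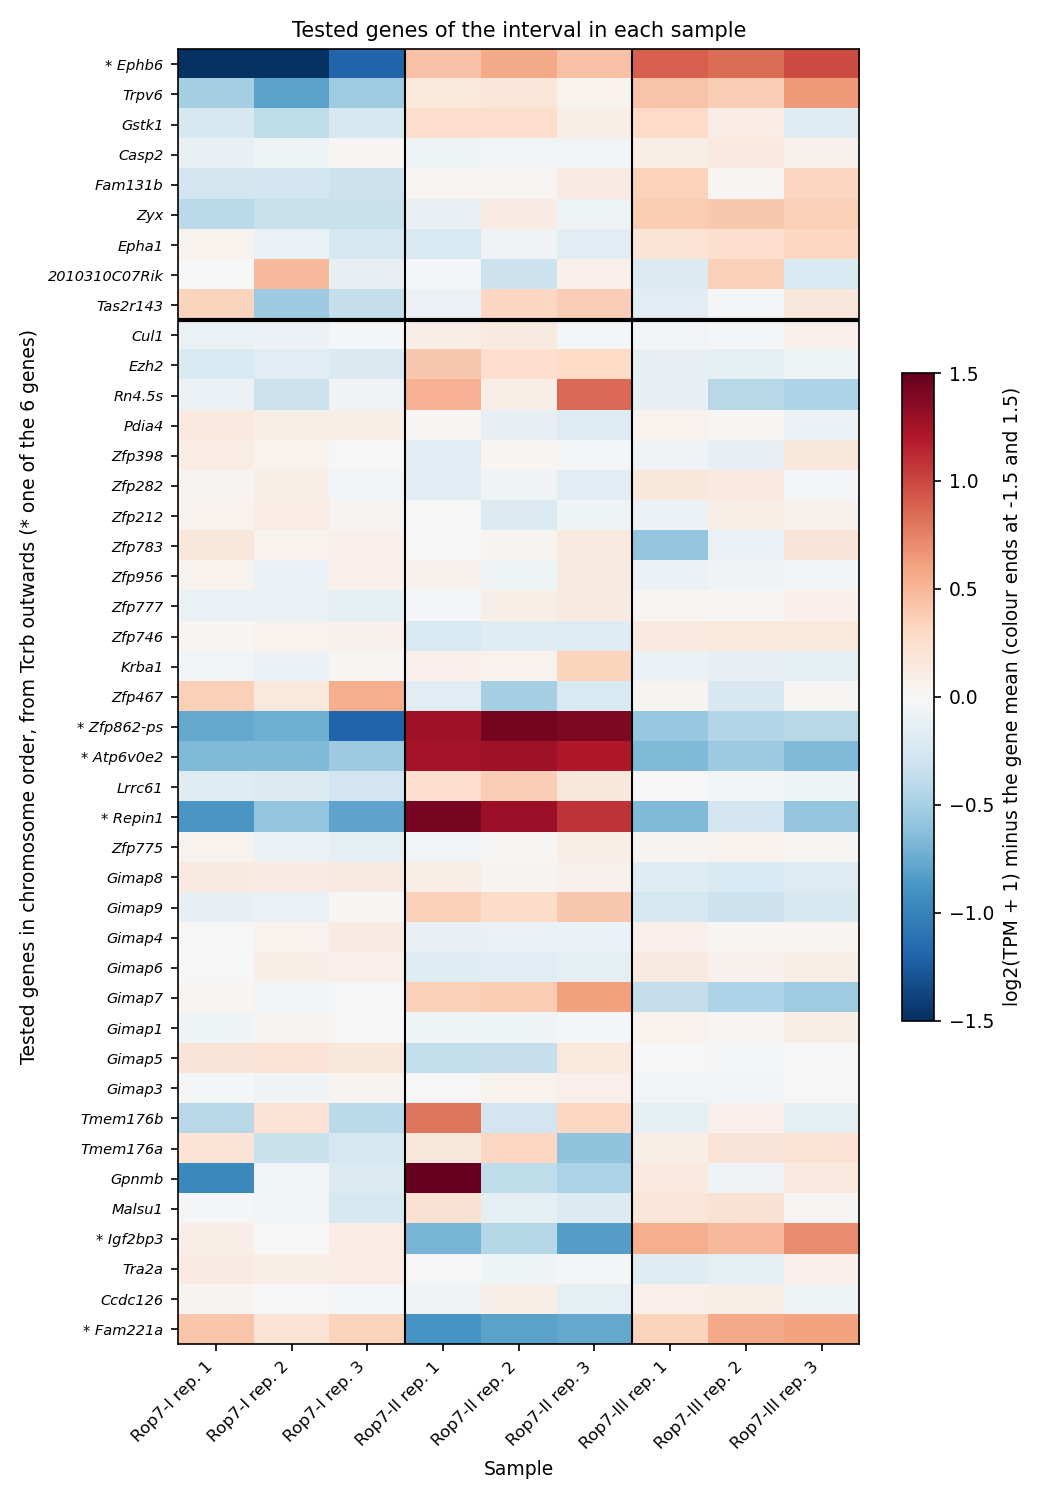
Level of the tested genes of the interval, all but 1 of the 44 (top to bottom in chromosome order from Tcrb, with * at the 6 genes) in the 9 samples (columns), as log2(TPM + 1) minus the mean of the gene, with a thick line at the gap without tested genes. Near the top the Rop7-I columns are low in several genes, most in Ephb6 and Trpv6. Further down the Rop7-II columns differ most in the genes marked *, and nearly even genes lie between the strong ones.

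Between Repin1 and Igf2bp3 lies the Gimap cluster, GTPase genes of which some are needed for the survival of resting T cells. All 8 Gimap genes tested were strongly expressed, from 90.0 TPM in a sample for Gimap5 to 2218 TPM for Gimap3, and none was called at 2-fold. Gimap7 and Gimap9 were highest in Rop7-II and lowest in Rop7-III, as in Gimap7 with means of 150, 207 and 110 TPM in the Rop7-I samples, Rop7-II and Rop7-III and log2 differences of 0.46 (adjusted p = 0.00247), -0.44 (adjusted p = 0.00404) and, between Rop7-III and Rop7-II, -0.90 (adjusted p = 4.02e-05). Gimap6 had Rop7-II lowest, at 892 TPM against 1040 and 1074 TPM in Rop7-I and Rop7-III (adjusted p = 0.00288 and 0.0007 for the pairs with Rop7-II), and Gimap8 had Rop7-III lowest, at 336 TPM against 422 and 405 TPM (adjusted p = 9.61e-05 and 0.000133). Within this cluster the odd clone and its direction therefore changed from gene to gene. At an adjusted p under 0.01, 2 Gimap genes were higher and 1 lower in Rop7-II than in Rop7-I, where 7.53% of all tested genes passed. For Rop7-III against Rop7-I 0 were higher and 2 lower, where 4.85% of all tested genes passed, and for Rop7-III against Rop7-II 1 was higher and 3 lower, where 12.3% did.

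Gpnmb, a gene of macrophages, had a high value in the library that stood apart. It stood at 10.2 TPM in Rop7-II replicate 1 and between 0.62 and 2.50 TPM in the other 8 samples, including 1.43 and 1.27 TPM in the other Rop7-II samples. Its log2 difference between Rop7-II and Rop7-I was 0.73 (adjusted p = 0.398), and -0.02 (adjusted p = 0.963) without that library. The part of myeloid cells in its level was not tested. None of the 6 members had its highest or lowest value in Rop7-II replicate 1 apart from Repin1, where that value was the highest, and Fam221a, where it was the lowest.

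Upstream of Zfp862-ps, 13 tested genes lie between the gap and the group. Ezh2, which encodes the methyltransferase of Polycomb repressive complex 2, stood at 23.7, 24.8 and 24.1 TPM in the Rop7-I samples, at 37.4, 33.8 and 34.8 TPM in those of Rop7-II and at 25.7, 25.4 and 26.8 TPM in Rop7-III. Rop7-II was the odd clone, higher in all samples, at 0.53 (SE 0.05, adjusted p = 0.000197) from Rop7-I and -0.43 (adjusted p = 0.000384) for Rop7-III against Rop7-II, and at 0.48 and -0.39 without Rop7-II replicate 1 (adjusted p = 0.000397 and 0.000839). Zfp746 had the opposite direction, with Rop7-II lowest at 38.4, 39.7 and 39.4 TPM against 46.3 to 47.5 TPM in Rop7-I and 50.4 to 50.7 TPM in Rop7-III (log2 difference -0.26, adjusted p = 0.00117, and 0.36, adjusted p = 9.48e-05, between Rop7-III and Rop7-II). Ezh2 and Zfp746 were named after their values were seen, as were Gstk1, Fam131b, Zyx, Casp2, Epha1, 2010310C07Rik, Tas2r143, Gpnmb, Atp6v0e, Igf2bp2, Arid3a, Efna2, Efnb1, Efnb3, Cd2, Cd8a, Lck, Cd4, S100a8, S100a9 and the Gimap genes other than Gimap3. Of these 13 genes, the Rop7-II samples lay all above the other 6 in 3 and all below in 2, and of the 16 other genes from Zfp862-ps to Fam221a all above in 3 and all below in 2. Together Rop7-II was set apart in 10 of these 29 genes (34.5%, beside the 19.9% given above for all tested genes), but Rop7-I was in 8 of them too (27.6%, beside 11.6%), and Rop7-III in 4 (13.8%, beside 18.6%).

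**Figure D3:**
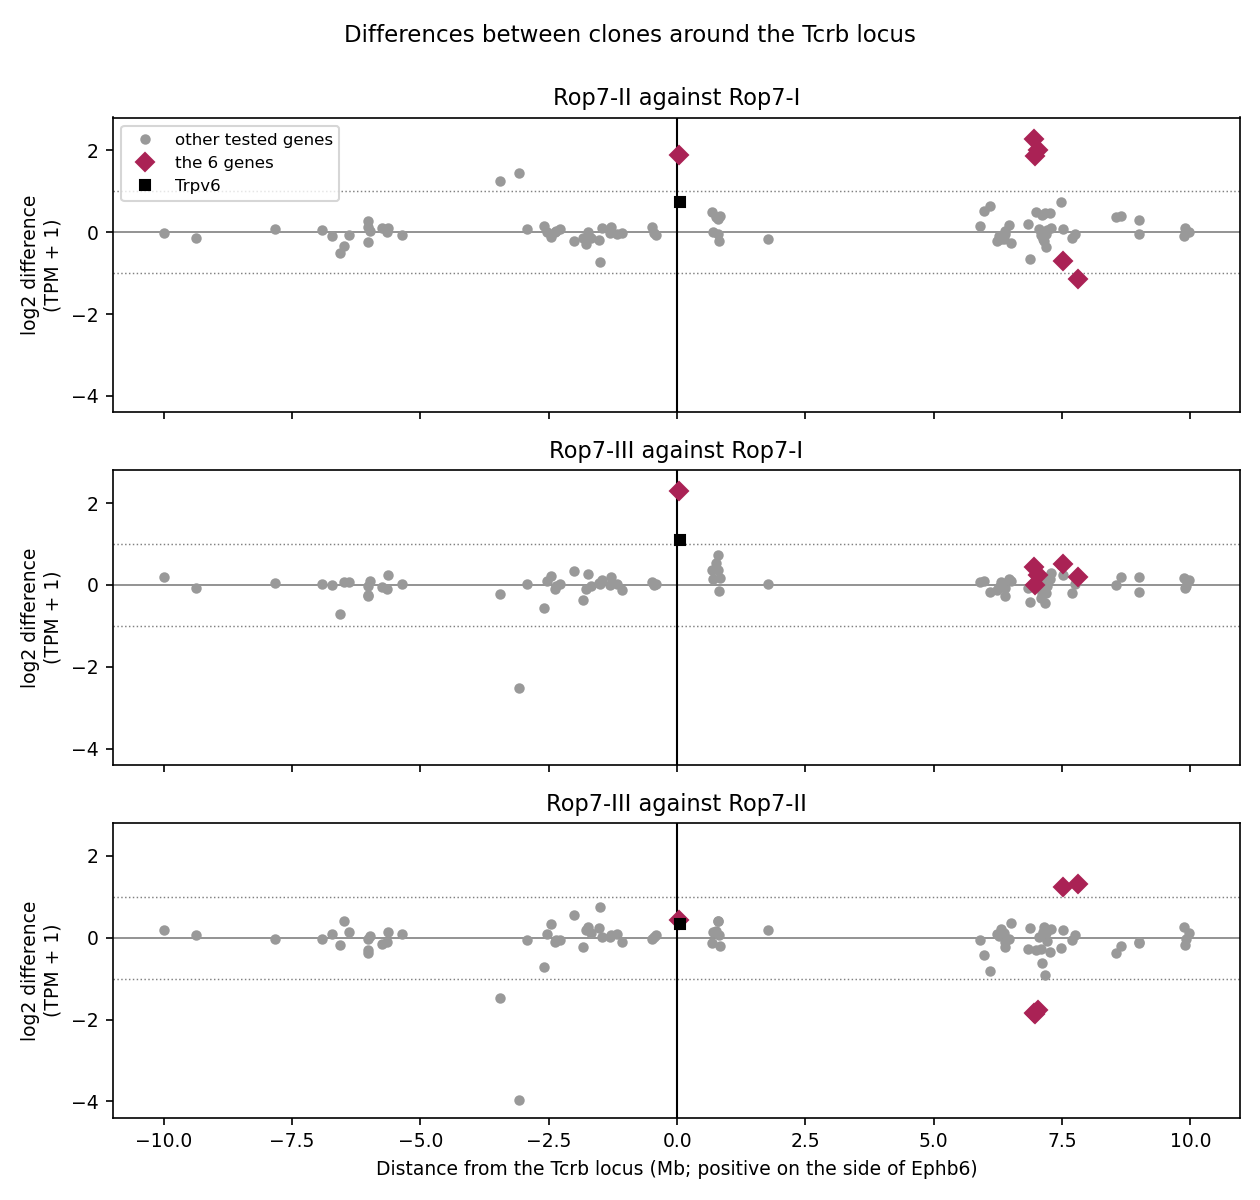
Log2 difference of each tested gene within 10 Mb of Tcrb (points) for the 3 pairs of clones, against its distance from the locus in Mb, with dotted lines at 2-fold. Ephb6 and Trpv6 stand up beside the locus in both pairs with Rop7-I, and near 7 Mb the other 5 genes pass 2-fold between Rop7-III and Rop7-II and all of them but Igf2bp3 between Rop7-II and Rop7-I, in both directions, while the points past 2-fold before the locus had an adjusted p of 0.01 or more.

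Counted with the same rule for a call, the interval held 5 called genes between Rop7-II and Rop7-I, where 0.949% of all tested genes were called (115 of 12115). It held 2 between Rop7-III and Rop7-I, where 1.06% of all tested genes were called, and 5 between Rop7-III and Rop7-II, where 1.7% were. The 2 between Rop7-III and Rop7-I, Ephb6 and Trpv6, fell to 1 without Rop7-I replicate 2 or any one Rop7-III sample. These counts contain the members, which were chosen for such differences, and nothing is read from them. Without the 6 members the counts among the remaining 38 genes were 0, 1 (Trpv6) and 0. Setting the members aside removes genes because they differed, so nothing is read from the low remaining counts. Without Rop7-II replicate 1 the counts in the interval were 5, 2 and 5 with the members and 0, 1 and 0 without them. In that fit 1.33%, 1.34% and 1.85% of 11916 tested genes were called in these pairs, more than with all samples.

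Without the 2-fold minimum more of the neighbours were counted. Of the 38 genes that are not members, 7 had an adjusted p under 0.01 between Rop7-II and Rop7-I (18.4%, against 7.53% of all tested genes), 4 between Rop7-III and Rop7-I (10.5%, against 4.85%) and 9 between Rop7-III and Rop7-II (23.7%, against 12.3%). Without Rop7-II replicate 1 the counts were 9, 4 and 8. That fit tested 11916 genes, and its own shares over all genes are not given, so these counts are not compared with the shares above. Between Rop7-II and Rop7-I the change came from Pdia4 (adjusted p from 0.0366 to 0.00772) and Zfp777 (0.0253 to 0.00714), and between Rop7-III and Rop7-II from Rn4.5s (0.00746 to 0.0172), which were named after their values were seen. Rn4.5s is annotated as an rRNA gene, though polyadenylated RNA was read, and whether its reads came from this position was not tested. The median absolute log2 difference of the 38 genes was 0.18, 0.15 and 0.20 in the 3 pairs, against 0.12, 0.10 and 0.13 over all tested genes. Small differences between clones were thus more frequent among these genes than over the whole table. But the pairs share samples, the members had been set aside because they differed, and the excess was not tested. The genes counted include Gimap6, Gimap7, Gimap8 and Gimap9, strongly expressed neighbours of 1 family, and the whole table was not matched for expression. In Rop7-II against Rop7-I 5 of the 7 were higher and 2 lower, and in Rop7-III against Rop7-II 3 of the 9 were higher and 6 lower.

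Along the chromosome the counts rest on few genes, and differences between stretches were not tested. From 0 to 2 Mb on the side of Ephb6, Zyx had an adjusted p under 0.01 in every pair, and Trpv6 only between Rop7-III and Rop7-I, where it depended on single samples as given above. Of the 9 genes of this stretch other than Ephb6, 8 had a higher mean in Rop7-III than in Rop7-I, with a median log2 difference of 0.35, where the median over all tested genes was 0.00. From 5 to 8 Mb, of the 29 genes that are not members, 6 had an adjusted p under 0.01 between Rop7-II and Rop7-I, 2 between Rop7-III and Rop7-I and 8 between Rop7-III and Rop7-II. On the other side of Tcrb, 24 tested genes lie within 5 Mb, of which 1, 0 and 4 had an adjusted p under 0.01 in these pairs, and 16 lie from 5 to 10 Mb away, of which none did. Over all tested genes the shares were 7.53%, 4.85% and 12.3%. Beside these, the shares were 20.7%, 6.90% and 27.6% for the 29 genes and 4.17%, 0% and 16.7% for the 24. The nearest called genes outside the interval were Smo, 11.1 Mb before Tcrb and highest in Rop7-I (4.70, 5.65 and 4.98 TPM, against 0.24 to 1.48 TPM in the other clones), and Reep1, 30.1 Mb after it and highest in Rop7-II (2.41, 3.04 and 3.50 TPM, against 0.23 to 1.26 TPM).

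**Figure D4:**
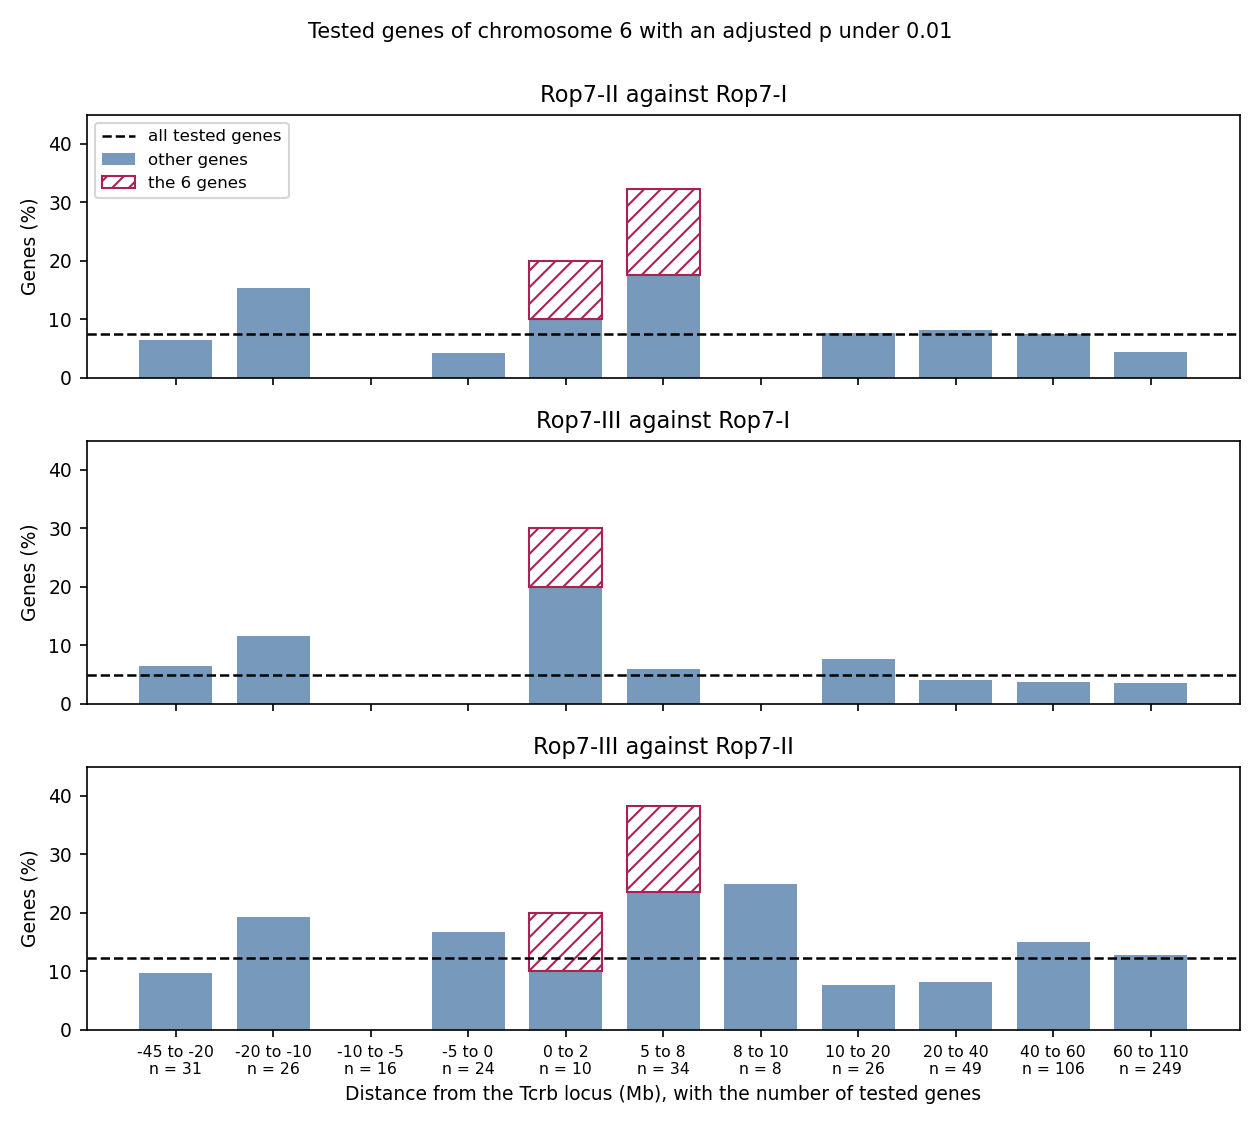
Share of the tested genes of chromosome 6 with an adjusted p under 0.01 (bars, in percent from 0), by distance from Tcrb in Mb, with the part that the 6 genes contribute hatched and the share of all tested genes as a dashed line. The filled part at 0 to 2 Mb reaches 20% between Rop7-III and Rop7-I, which is 2 of 10 genes, and the bars rest on few genes near the locus.

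Genes related to the members by function were listed to give their levels. Of 22 Eph receptors and ephrins, 7 were at 0 in every sample and 5 were tested, with Ephb6 the most abundant. The tested genes besides Ephb6, namely Epha1, Efna2, Efnb1 and Efnb3, had a mean of at most 4.13 TPM in a clone and adjusted p of at least 0.0477. Of 25 V-ATPase genes 19 were tested, and besides the member Atp6v0e2 only Atp6v1d was called, in both pairs with Rop7-II, where 0.949% (against Rop7-I) and 1.7% (against Rop7-III) of all tested genes were called. The median log2 difference over the list was 0.06 between Rop7-II and Rop7-I, against 0.01 over all tested genes, and -0.14 between Rop7-III and Rop7-II, against -0.02. Most of the tested genes of the list, though neither Atp6v0e2 nor Atp6v1d, had their highest value in Rop7-II replicate 1, the library that stood apart. The part of other cells in these medians was not tested. Atp6v1d, a stalk subunit gene on chromosome 12, stood at 63.8 to 71.4 TPM in the Rop7-I samples, at 203, 337 and 321 TPM in those of Rop7-II and at 69.4 to 72.5 TPM in Rop7-III, with log2 differences of 2.05 (SE 0.16, adjusted p = 5.23e-05) and -1.97 (adjusted p = 4.99e-05). It was high in all Rop7-II samples without overlap, and whether this is related to Atp6v0e2 was not tested.

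Of 7 genes of the Igf2bp family and the Lin28 axis, 3 were tested (Igf2bp3, Igf2bp2 and Arid3a), and besides the member Igf2bp3 the lowest adjusted p was 0.0327, for Igf2bp2 in Rop7-III against Rop7-I. Igf2bp2 stood at means of 1.99, 1.29 and 0.923 TPM in the Rop7-I samples, Rop7-II and Rop7-III, a different order from that of Igf2bp3. Of the zinc finger cluster of chromosome 6, 12 genes were tested, and besides the members Zfp862-ps and Repin1 only Zfp746, described above, had an adjusted p under 0.01 in a pair, joined by Zfp777 when Rop7-II replicate 1 was left out. The median log2 difference over the 12 was -0.01, 0.01 and 0.00 in the 3 pairs, close to 0 in each.

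The genes most like each member over the 9 samples, by Pearson's r of log2(TPM + 1) among all tested genes, were all on other chromosomes. For Ephb6 they were D17Wsu92e, Sord and C78339 (r = 0.998, 0.997 and 0.989), and Sord, on chromosome 2, had means of 4.16, 14.1 and 19.3 TPM in the Rop7-I samples, Rop7-II and Rop7-III. For Zfp862-ps they were Twf2, Arhgap1 and Abhd14a (0.992, 0.990 and 0.987), for Atp6v0e2 Pdk1, Abhd14b and Trappc12 (0.996 each), and for Repin1 Cmtm7, Abhd14a and Trappc12 (0.990, 0.987 and 0.985). Abhd14b, on chromosome 9, had means of 0.557, 21.2 and 0.477 TPM, the near-absent and high pattern of Atp6v0e2. For Igf2bp3 they were Glrx, Btf3l4 and Iqgap2 (0.981, 0.981 and 0.980), and for Fam221a Atxn1, Lrrc58 and Fli1 (0.992, 0.989 and 0.989). With 9 samples in 3 clones such high values are found by search among 12115 genes, and they say nothing of shared control.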

How the data were processed

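Polyadenylated RNA of 9 samples was measured by RNA-seq, 3 per clone, and samples were grouped by their labels. The authors aligned reads to mm10 RefSeq genes and counted them with RSEM 1.2.11, and deposited TPM values per gene and sample. They compared clones with DESeq2 1.8.1, which needs counts and was not used here. The deposited TPM sum to 1000000 or 1000001 per sample and keep no depth, so no interval for counting error is given. Genes with a maximum of 1 TPM or less were left out, as by the authors. Values were taken as log2(TPM + 1) and compared with limma 3.58.1 in R 4.3.3, using 1 model of all 9 samples in which the variance could follow expression and samples were not paired, with Benjamini-Hochberg adjustment over the 12115 genes of each pair. All adjusted p are from limma. A gene was called when it changed at least 2-fold with an adjusted p below 0.01. The fit was tested on simulated data, in which the 200 changed genes were drawn only from those with higher mean levels. That run therefore says nothing of weakly expressed genes such as Atp6v0e2, Repin1 and Trpv6.

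Positions are from RefSeq on GRCm38.p6, found for 12058 of the tested genes, and strands from GENCODE. The table holds 0 TCR gene segments. The odd clone of a gene is the end clone in the order of mean log2(TPM + 1) that lies farther from the middle one. Genes named were the members, genes of the interval called in any pair, the nearest tested gene on each side of each member, the 3 genes most correlated with each member, called genes of the lists or otherwise the most abundant one, and the nearest called genes outside the interval. Others are marked as named after their values were seen. For 1 gene of the interval the result is not reported here, while the counts include it. The lists were Eph receptors and ephrins, V-ATPase subunits, the Igf2bp family and Lin28 axis, the zinc finger cluster, the Gimap family and markers of CD8 T, B, myeloid, CD4 T, NK and erythroid cells. Members and lists were chosen with earlier results of these data known. Alternatives varied the TPM added, the filter, the scaling, the trend, the samples fitted, a replicate block, each sample left out, the thresholds and the interval. Figures were drawn with matplotlib 3.10.9.

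Each line stands for 1 clone, so a difference between clones cannot be given to the receptor, the donor cell, the breeding or the handling of the samples. Sequence differences between the lines were not analysed here, and whether a neighbour shares DNA with a member was not tested. Several members are expressed near the lowest values of the table, where the TPM added shapes the log2 difference. Lists share genes with the interval and comparisons share samples, so their results are not independent. RNA from other cells in a library adds to every gene those cells express.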

Additional observations from a re-analysis of the deposited data

How the results depend on the processing

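Under its 19 alternatives Trpv6 in Rop7-III against Rop7-I kept its direction, with the call lost in 4, each without 1 sample. The called differences of the members kept the call, which says little as they were chosen for size. Their other differences were not rerun under every alternative. Without Rop7-II replicate 1, Igf2bp3 between Rop7-II and Rop7-I and Ephb6 between Rop7-III and Rop7-II no longer had an adjusted p under 0.01. Their log2 differences in that fit were -0.69 and 0.40. The counts moved most without a fold minimum, to 912, 588 and 1488 genes for Rop7-II against Rop7-I, Rop7-III against Rop7-I and Rop7-III against Rop7-II over the whole table (115, 128 and 206 with it) and to 13, 5 and 15 in the interval (5, 2 and 5 with it). Keeping only genes that reach 1 TPM throughout all samples gave 79 genes for Rop7-III against Rop7-I, and 3, 1 and 3 in the interval, because Atp6v0e2, Repin1 and Trpv6 fall under that filter and have no value there. Leaving out each sample in turn gave 93 to 158, 82 to 160 and 170 to 239 genes over the table, the 82 without Rop7-III replicate 2, and 5 to 5, 1 to 2 and 5 to 6 in the interval. The replicate numbers did not pair the samples: deviations of same-numbered samples correlated at -0.388 to 0.107, with 1 of 9 over 0.1. With the replicate number as a replicate block the counts were 104, 102 and 183 over the table and 5, 2 and 5 in the interval. Shifting samples to a common median, whose range was 0.05 on the log2 scale, left the interval at 5, 2 and 5. Adding 0.1 TPM took Atp6v0e2 in Rop7-II against Rop7-I to 4.54 from 1.86. Values of Atp6v0e2, Trpv6 and Fam131b lie near the lowest listed values, where the depth, which TPM do not keep, sets the precision.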
